A study of Mus musculus with 6 samples.

Results

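The 10 genes described here make or inactivate prostaglandins and leukotrienes. They are Ptgs1, Ptgs2, Ptges, Ptges2, Ptgds, Hpgds, Hpgd, Alox5, Alox5ap and Ltc4s. They were chosen by their role in the pathway and found by matching the Ensembl gene identifiers of the normalised count table to mouse gene symbols. All 10 were among the 43274 genes of that table. The data are RNA-seq libraries of hair follicle bulge stem cells (SCs), sorted by flow cytometry as CD34+/α6 integrin-high cells from mouse epidermis at postnatal day 21. The study asked how integrin-linked kinase (ILK), an adaptor protein at integrin adhesions, acts on these cells. The 3 control libraries came from ILK fl/+ K5-Cre mice, which had 1 floxed Ilk allele and are labelled ILK +/-. The 3 ILK-K5 libraries came from ILK fl/fl K5-Cre littermates, with both alleles floxed and the label ILK -/-. All 6 libraries thus came from mice with the K5-Cre transgene, in which the keratin 5 promoter drives Cre in basal keratinocytes and their descendants and not in leukocytes. Sexes were mixed at random, and whether a library held cells of 1 mouse or of several is not given in the sources used here. The p-values below measure the spread between libraries.

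Prostaglandins and leukotrienes are signalling lipids made from arachidonic acid, which phospholipases A2 release from membranes. The cyclooxygenases Ptgs1 and Ptgs2 open the prostaglandin branch, whose product is shaped by the E and D synthases and inactivated by Hpgd. The 5-lipoxygenase Alox5, working with the membrane protein Alox5ap, opens the leukotriene branch, and Ltc4s makes leukotriene C4 from its product. In skin, keratinocytes are a known source of prostaglandin E2, while the leukotriene branch is best known from leukocytes.

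The libraries held 8228019 to 11969072 reads on genes, so that 1 read was worth 0.726 to 1.52 normalised counts, and mitochondrial genes took 11.5% to 27.6% of the reads. Ilk itself (ENSMUSG00000030890, chr7:105736592-105742925) stood at 10.6, 16.7 and 38.5 normalised counts in the controls and at 14.8, 30.9 and 29.2 in ILK-K5 (log2FC 0.30, SE 0.64, limma adjusted p = 0.933). Of its exon bases 89.7% are shared with genes on the opposite strand, and with no strand stated for the counting these values do not check the genotype labels. All 8 bulge SC markers were detected, and 1 of them, Cd34, was called lower in ILK-K5 (947 to 2009 against 296 to 560 normalised counts, log2FC -1.90, adjusted p = 0.0239). Markers of several other cell types moved with genotype, and those of some did not. All 6 leukocyte markers were called higher in ILK-K5, their sum going from 43.4 to 122 in the controls to 4057 to 5546 in ILK-K5. All 11 macrophage markers tested, of 12 listed, were also called higher, with sums of 334 to 425 and of 11381 to 15042. The mast cell list stood at 27.6 to 48.2 in the controls and at 21.6 to 39.8 in ILK-K5, with Cpa3, Tpsb2 and Tpsab1 at 0 in all 6 libraries. The neutrophil list had sums of 33.4 to 56.9 and of 219 to 298, and the Langerhans and dendritic cell list of 546 to 922 and of 2569 to 2833, with 2 of 4 and 2 of 7 tested genes called higher. Of the 7 neutrophil genes 3 fell below the filter, and Ly6g and Retnlg had 0 reads in every ILK-K5 library. Fibroblast and dermal papilla markers summed to 728 to 871 and to 1690 to 2560 (2 of 6 tested called higher), T cell markers to 123 to 162 and to 208 to 278 (1 of 5 called higher), and melanocyte markers to 680 to 1311 and to 273 to 483 (1 of 5 called lower), each without overlap. Platelet markers summed to 18.3 to 34.8 and to 128 to 263 (1 of 3 tested called higher). The sums overlapped for endothelial markers (125 to 271 and 142 to 149, 0 of 3 tested called) and basal keratinocyte markers (63998 to 106353 and 62142 to 77778, 0 of 5). B cell markers overlapped too (21.3 to 65.6 and 10.7 to 25.5, 0 of 1). Of all genes tested 2.93% were called higher and 0.599% lower. In bulk libraries a change in the number of cells of a type and a change in RNA per cell cannot be told apart.

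Per transcript length, measured as FPKM (fragments scaled to transcript length and library size), Hpgd had the highest level of the 10 genes in control bulge SCs. It stood at 36.3 ± 11.7 FPKM (SD, n = 3). Ptgs1 at 7.39 ± 4.27, Hpgds at 3.86 ± 2.76, Ptges at 3.11 ± 0.52, Ptgs2 at 2.44 ± 1.62, Alox5 at 1.77 ± 2.19, Alox5ap at 1.16 ± 1.16 and Ptges2 at 0.888 ± 0.183 FPKM followed, and Ltc4s and Ptgds came last. Among these neighbours the ranges over libraries were apart only between Hpgd, lowest at 23.5, and Ptgs1, highest at 12.1 FPKM. In ILK-K5 the order was led by Alox5ap at 24.7 ± 6.28 FPKM, which had been the seventh gene in the controls. Hpgd came next at 14.4 ± 3.72, and the lowest Alox5ap library (17.5) lay above the highest Hpgd library (16.7). This order rests on the gene lengths behind the deposited FPKM. By normalised counts Hpgd had the higher mean in ILK-K5 (241 against 205 for Alox5ap), and their libraries overlapped. Ptges at 5.33 ± 1.44, Hpgds at 5.15 ± 1.09, Ptgs1 at 4.72 ± 0.72 and Ptgs2 at 4.32 ± 1.10 FPKM overlapped each other, below Hpgd and above Alox5 at 1.18 ± 0.31. Alox5 and Ptges2 (1.17 ± 0.579) overlapped as well, and Ltc4s and Ptgds were again last.

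**Figure D1:**
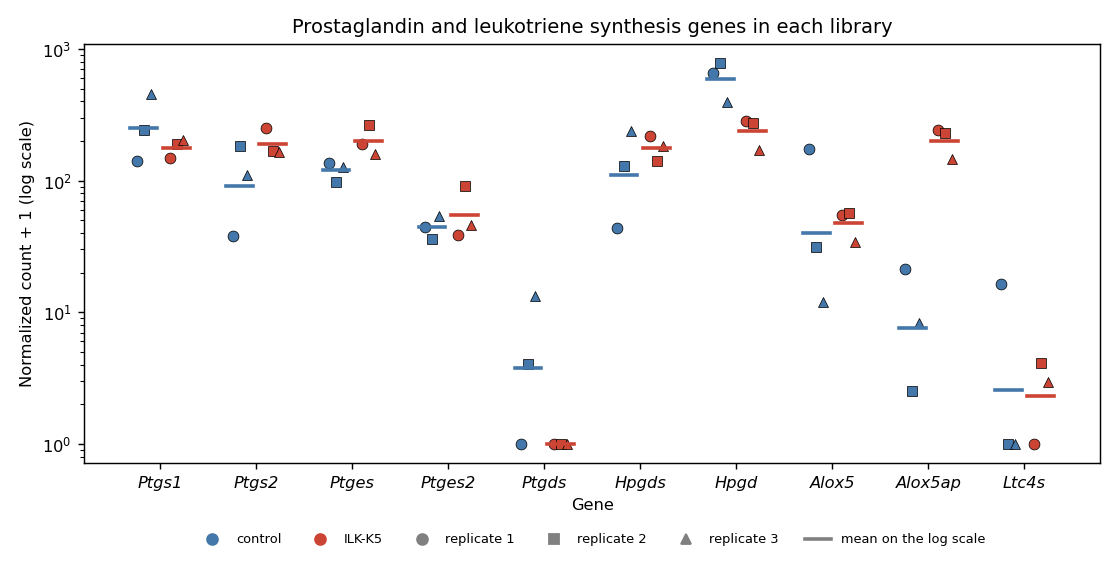
Normalised counts plus 1 on a log axis for the 10 genes, with 1 point per library (3 control, 3 ILK-K5, symbols by replicate number) and a bar at each genotype's mean on the log scale. Alox5ap lies at 145 to 241 normalised counts in ILK-K5 and at 1.5 to 20.3 in the controls, and Hpgd lies lower in every ILK-K5 library than in any control.

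Genotypes were compared with limma on log2(normalised count + 1) over all 16368 genes whose mean reached 10 normalised counts. A gene was called where its adjusted p (Benjamini-Hochberg) did not exceed 0.05, as 3.53% of them did in either direction. Of the 10 genes 8 passed this filter, and Ptgds and Ltc4s did not. Alox5ap was called higher in ILK-K5, 1 of the 8 genes tested, beside 2.93% of all genes tested. Its control mean of 9.68 normalised counts lay under the filter, which it passed through the ILK-K5 libraries (mean 205). None was called lower (0 of 8, beside 0.599%). At an unadjusted p under 0.05 limma gave 2 of the 8 higher (Alox5ap, Ptges), beside 8.18% of all genes, and 1 lower (Hpgd), beside 4.11%. By adjusted p edgeR called 1 higher and 0 lower, beside 2.58% and 0.532% of all genes. DESeq2 called 1 higher and 1 lower, the latter being Hpgd, beside 4.72% and 1.71%. All ILK-K5 libraries lay above all controls for Alox5ap and Ptges (10.9% of all genes) and below them for Hpgd (6.95%). With so few members, these counts are a description. The median log2FC of the 8 genes was 0.50, beside 0.01 over all genes tested.

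**Figure D2:**
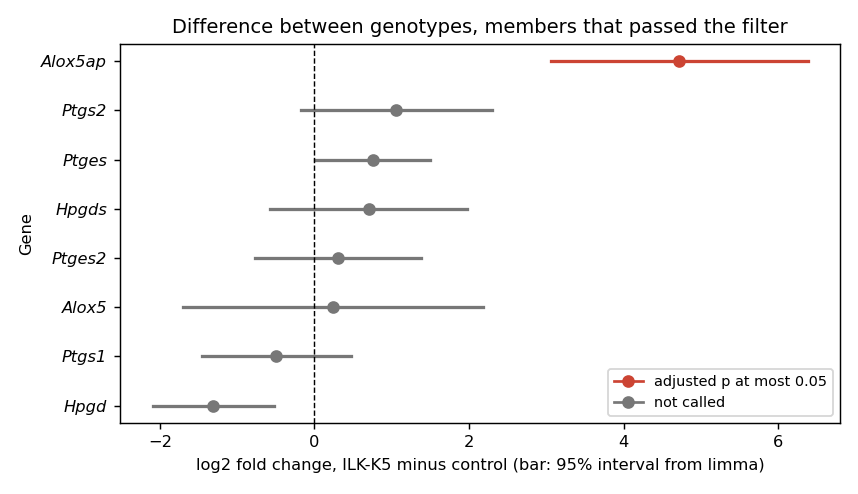
Log2 fold change of ILK-K5 against control for the 8 genes that passed the filter, with 95% intervals from limma (3 libraries a genotype), red where the adjusted p was at most 0.05. Alox5ap stands at 4.72 (3.06 to 6.38), Hpgd at -1.31 (-2.09 to -0.53), and the intervals of Ptgs2, Hpgds, Ptges2, Alox5 and Ptgs1 span 0.

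The cyclooxygenases turn arachidonic acid into prostaglandin H2, Ptgs1 as the form held to be constitutive and Ptgs2 as the one induced by growth factors and inflammation. Ptgs1 (ENSMUSG00000047250, chr2:36230426-36252272) had 141, 242 and 457 normalised counts in the controls and 148, 187 and 201 in ILK-K5. The ILK-K5 libraries fell inside the control range, and the difference was not called (log2FC -0.49, SE 0.43, 95% interval -1.46 to 0.47, adjusted p = 0.787). Ptgs2 (ENSMUSG00000032487, chr1:150100031-150108227) had 36.7, 181 and 110 normalised counts in the controls and 249, 167 and 163 in ILK-K5. Control 1 was the lowest and ILK-K5 1 the highest library, and control 2 lay above ILK-K5 2 and 3 (log2FC 1.06, SE 0.55, -0.18 to 2.30, adjusted p = 0.529). The log2FC was 0.42 without control 1, 1.56 without control 2 and 0.22 with replicates 2 and 3 alone.

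Since both enzymes catalyse the same step, Ptgs2 was also expressed as a share of the summed FPKM of Ptgs1 and Ptgs2 in each library. The share was 18.1%, 38.8% and 16.9% in the controls (24.6% ± 12.3) and 58.8%, 43.0% and 40.7% in ILK-K5 (47.5% ± 9.86). Every ILK-K5 library lay above every control, with a gap between 38.8% and 40.7%. The difference in means was 22.9 percentage points, with p = 0.1 in a two-sided exact permutation test, which is the smallest value that 3 against 3 libraries allow. The starts of both genes are shown because they encode the enzymes of this one step, and that of Hpgd because it encodes the enzyme that ends the signal. All were chosen after the values were seen. The 250 bases before the RefSeq start (GRCm38.p6) are printed 5′ to 3′ on the strand of the gene, and capitals mark GAGGAA, the core of sites bound by PU.1 and other Ets factors, or its reverse complement.
Ptgs1, chr2:36230176-36230425, plus strand: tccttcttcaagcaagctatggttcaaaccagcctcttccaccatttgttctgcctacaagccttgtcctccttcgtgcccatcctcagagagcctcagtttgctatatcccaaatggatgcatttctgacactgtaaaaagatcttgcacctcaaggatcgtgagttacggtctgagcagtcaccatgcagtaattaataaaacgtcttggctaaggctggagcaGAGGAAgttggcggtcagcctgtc
Ptgs2, chr1:150099781-150100030, plus strand: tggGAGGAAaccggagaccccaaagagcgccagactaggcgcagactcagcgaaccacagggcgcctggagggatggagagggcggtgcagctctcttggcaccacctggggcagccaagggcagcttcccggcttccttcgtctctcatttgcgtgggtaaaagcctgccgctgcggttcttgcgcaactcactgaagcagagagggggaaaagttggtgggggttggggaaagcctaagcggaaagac
Hpgd, chr8:56294302-56294551, plus strand: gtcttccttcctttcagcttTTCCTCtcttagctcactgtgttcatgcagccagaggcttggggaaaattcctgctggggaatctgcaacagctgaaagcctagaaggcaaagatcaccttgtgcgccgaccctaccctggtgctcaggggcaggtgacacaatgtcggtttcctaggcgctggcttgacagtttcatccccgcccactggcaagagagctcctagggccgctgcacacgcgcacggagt

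GAGGAA was searched on both strands in windows from 250 bases before to 50 after the start, which RefSeq gave for 9 of the 10 genes. It was found for 7 of the 9 (Ptgs1, Ptgs2, Ptges, Hpgds, Hpgd, Alox5 and Ltc4s), beside 28.3% of 32851 promoters of the same length. In Ptgs1 it began 24 bases before the start, in Hpgds 49, in Alox5 136, in Ptgs2 247 and, as the reverse complement, in Ptges 149 and in Hpgd 230 bases before it. In Ltc4s the reverse complement began at base 17 after the start. GGGCGG, a core of Sp1 sites, was in 4 of 9 (Ptgs2, Ptges, Hpgd and Alox5) beside 35.7% of all promoters. TATAAA was in 1 (Hpgd) beside 13.6%, TGANTCA, the AP-1 site, in 1 (Ptgds) beside 7.81%, and TGACGT, part of the cAMP response element, in 1 (Ptgs2) beside 7.51%. The TATAAA of Hpgd began at base 5 after the start and the TGACGT of Ptgs2, as the reverse complement, at base 13 after it. Both lie outside the printed bases. The genes that carry GAGGAA include Hpgd, with all ILK-K5 libraries below the controls, and Ptges, with all above. These are matches of letters and were not tested against the expression values.

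The E synthases convert prostaglandin H2 to prostaglandin E2. Ptges (ENSMUSG00000050737, chr2:30889471-30929863), the inducible microsomal form, had 136, 97.3 and 125 normalised counts in the controls and 190, 265 and 158 in ILK-K5. All 3 ILK-K5 libraries exceeded all controls. The log2FC of 0.75 (SE 0.33, 0.0016 to 1.50) did not pass (adjusted p = 0.405). Ptges2 (ENSMUSG00000026820, chr2:32395896-32405772), a second microsomal form, had 43.4, 35.0 and 53.0 normalised counts in the controls and 37.6, 90.2 and 44.8 in ILK-K5. ILK-K5 2 stood above the other 5 libraries, which overlapped (log2FC 0.30, SE 0.48, -0.77 to 1.38, adjusted p = 0.903).

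Prostaglandin D2 is made by Hpgds, the haematopoietic form found in mast cells, macrophages and other leukocytes, and by Ptgds, the lipocalin form. Hpgds (ENSMUSG00000029919, chr6:65117293-65144908) had 42.5, 128 and 235 normalised counts in the controls and 216, 140 and 183 in ILK-K5. The ILK-K5 values again lay within the control range (log2FC 0.70, SE 0.57, -0.58 to 1.98, adjusted p = 0.769). Control 1 was the lowest library, and with replicates 2 and 3 alone the log2FC was -0.11. Hpgds was not called. Beside it all 6 leukocyte markers were called higher, and the part of leukocyte RNA in the Hpgds values was not tested. Ptgds (ENSMUSG00000015090, chr2:25466709-25470046) had 0, 2 and 17 reads in the controls, or 0, 3.0 and 12.3 normalised counts, and 0 reads in each ILK-K5 library. A count of 0 allows up to 3 reads, or 3.42, 2.31 and 2.92 normalised counts in ILK-K5 1 to 3 (counting error only). Control 3 held most of the Ptgds reads, and without a filter its difference was not called (limma adjusted p = 0.565).

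Hpgd encodes 15-hydroxyprostaglandin dehydrogenase, which oxidises prostaglandins E2 and F2α and so ends their action. Hpgd (ENSMUSG00000031613, chr8:56294585-56321043) had 651, 780 and 394 normalised counts in the controls and 280, 275 and 169.5 in ILK-K5. The highest ILK-K5 library lay below the lowest control. The means were 608 ± 197 and 241 ± 62.3 normalised counts (SD, n = 3), 2.48-fold lower in ILK-K5 by the fitted log2FC of -1.31 (SE 0.35, -2.09 to -0.53). The difference did not pass (adjusted p = 0.0881). It passed in DESeq2 (log2FC -1.36, adjusted p = 0.0127). It also passed in limma with a term for a number that separates replicates 1 from the others in the sample descriptions (adjusted p = 0.0309, 1 member called higher beside 5.17% of all genes and 1 lower beside 1.75%). The same held without control 3 (log2FC -1.59, adjusted p = 0.0385, beside 0.593% of all genes lower). Leaving out each library in turn gave adjusted p = 0.0385 to 0.367, and replicates 2 and 3 alone 0.211. The summed bulge SC markers lay at 45162 to 109356 normalised counts in the controls and at 22452 to 49564 in ILK-K5 beside it, with overlap, and their part in the Hpgd values was not tested.

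Ptgs2 and Hpgd, the inducible enzyme at the start of the prostaglandin branch and the enzyme at its end, were set against each other within each library after their values were seen. The ratio of Ptgs2 to Hpgd FPKM was 0.0211, 0.0871 and 0.104 in the controls. It was 0.334, 0.228 and 0.360 in ILK-K5, where every library was above every control. No test was made on this ratio.

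In the leukotriene branch the enzyme and its partner differed in their pattern. Alox5 (ENSMUSG00000025701, chr6:116410077-116461178) had 172, 30.4 and 10.9 normalised counts in the controls and 53.5, 55.5 and 33.1 in ILK-K5. The controls spread on both sides of the ILK-K5 libraries, and the sign of the difference rested on control 3 and on the tool. The log2FC was 0.24 (SE 0.86, -1.71 to 2.18, adjusted p = 0.964), -0.58 in edgeR, -0.63 in DESeq2, 1.29 without control 1 and -0.64 without control 3.

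Alox5ap encodes 5-lipoxygenase activating protein (FLAP), which presents arachidonic acid to Alox5 at the nuclear membrane. Alox5ap (ENSMUSG00000060063, chr5:149264767-149288153) had 20.3, 1.5 and 7.3 normalised counts in the controls, from 21, 1 and 10 reads. It had 241, 228 and 145 in ILK-K5, from 212, 296 and 149 reads. The lowest ILK-K5 library was thus several times the highest control. The log2FC was 4.72 (SE 0.74, 3.06 to 6.38, adjusted p = 0.00782), or 26.4-fold higher in ILK-K5. The log2FC was 3.92 without control 2 and 5.46 without control 1. It was called higher under all 18 alternatives tried, with adjusted p = 0.00158 to 0.0488 when each library was left out in turn. Of its exon bases 13.3% are shared with Gm19719 on the opposite strand. The genes whose log2 values followed Alox5ap most closely over the 6 libraries were Plscr1 (Pearson r = 0.998), Gsdmd (0.997) and Pip4k2a (0.997), as a description over libraries that fall into 2 genotypes. Beside it the leukocyte and macrophage lists rose as given above, with Ptprc, the pan-leukocyte phosphatase CD45, at 22.8 to 50.8 normalised counts in the controls and at 1010 to 1431 in ILK-K5. The ratio of Alox5ap to Ptprc FPKM, which was not planned, was 15.6, 1.43 and 3.07 in the controls. In ILK-K5 it was 3.63, 4.42 and 3.09, inside the wide spread of the controls at 1 to 21 Alox5ap reads. No test was made on this ratio. The part of leukocyte RNA in the Alox5ap difference was not tested.

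Ltc4s (ENSMUSG00000020377, chr11:50236461-50238616), which joins glutathione to leukotriene A4, had 16, 0 and 0 reads in the controls and 0, 4 and 2 in ILK-K5. These correspond to 15.4, 0 and 0 and to 0, 3.1 and 1.9 normalised counts. Only control 1 and ILK-K5 2 exceeded the 3 reads that a count of 0 allows, and without a filter the log2FC was -0.15 (limma adjusted p = 0.974). A difference was not detectable at this depth, and 26.4% of the exon bases are shared with Gm26542 on the opposite strand.

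The ratio of Alox5ap to Alox5 FPKM, formed after their values were seen, was 0.569, 0.241 and 3.21 in the controls. It was 21.7, 19.8 and 21.1 in ILK-K5. The ILK-K5 libraries lay close together, and the controls were spread widely at 1 to 21 Alox5ap reads. No test was made on this ratio.

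**Figure D3:**
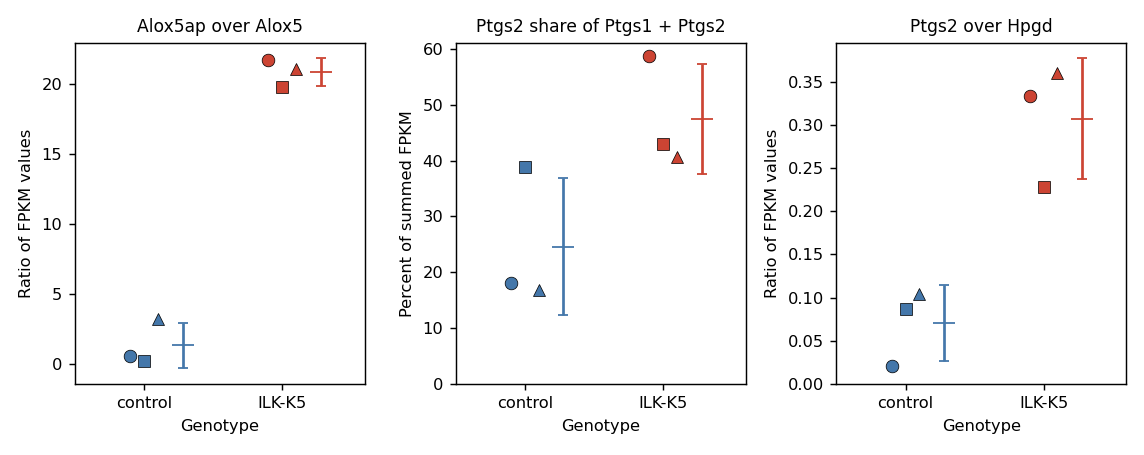
Per-library FPKM ratios of Alox5ap to Alox5 and of Ptgs2 to Hpgd, and the percentage of Ptgs2 in the sum of Ptgs1 and Ptgs2, in control (blue) and ILK-K5 (red) libraries, with circles, squares and triangles for replicates 1, 2 and 3 and lines for mean ± SD (n = 3). In each panel all ILK-K5 libraries lie above all controls, by the least in the Ptgs2 share (40.7% against 38.8%).

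The remaining genes of the pathway were taken from a list of 62 phospholipases, synthases, transporters, receptors and lipoxygenases, of which 39 passed the filter. Of these 3 were called higher in ILK-K5 (2.93% over all genes tested) and 1 lower (0.599%), and 35 were not called. In 11 of the 39 all ILK-K5 libraries lay above the controls (10.9% over all genes) and in 5 below (6.95%). Among the 11, Pla2g2d, Ggt5, Ltb4r2 and Alox15 had control means of 5.65, 4.93, 7.45 and 5.67 normalised counts, under the filter. They passed it through the ILK-K5 libraries and are named after their values were seen. How many genes of the 10.9% did so was not counted. The median log2FC was 0.32. The genes called higher were Pla2g7, Dpep2 and Alox15, and the gene called lower was Alox8.

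Of 21 phospholipases A2, 11 passed the filter and 1 was called higher, beside 2.93% of all genes tested. DESeq2 called 2 higher and 1 lower, beside 4.72% and 1.71% of all genes. Pla2g7, which hydrolyses platelet-activating factor and oxidised phospholipids and is secreted by macrophages, had 59.8, 19.8 and 9.4 normalised counts in the controls and 877, 617 and 436 in ILK-K5 (log2FC 4.71, SE 0.60, adjusted p = 0.00261). Its groups were far apart, and 11.0% of its exon bases are shared with another gene. Pla2g4a, the cytosolic enzyme that supplies most arachidonic acid for both branches, had 757, 1051 and 710 normalised counts in the controls and 583, 501 and 519 in ILK-K5. All ILK-K5 libraries were lower, but the difference did not pass (log2FC -0.63, SE 0.26, adjusted p = 0.349). The further calls of DESeq2 were Pla2g4e (log2FC 2.35, adjusted p = 0.0141) and Pla2g16 (-1.88, adjusted p = 0.00167), named here after their values were seen. Pla2g16, an acyltransferase and phospholipase of adipose and other tissues, had 209, 100.4 and 168 normalised counts in the controls and 51.2, 30.1 and 51.6 in ILK-K5, all below the controls, and limma missed the threshold (log2FC -1.80, SE 0.43, adjusted p = 0.0569). The secreted Pla2g2f, expressed in suprabasal epidermis, overlapped between genotypes, with 673 normalised counts in control 3 and 64.6 to 230 in the other 5 libraries (log2FC 0.28, adjusted p = 0.949). It was -0.57 in edgeR and -0.56 in DESeq2.

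The 10 other prostanoid synthases and reductases included 8 that passed the filter and 0 that limma, edgeR or DESeq2 called, while 2 were higher at an unadjusted limma p under 0.05, beside 8.18% of all genes tested. Ptges3, the cytosolic E synthase and Hsp90 cochaperone p23, had the highest level of them and lay at 1060 to 1624 normalised counts in the controls and 1086 to 1495 in ILK-K5 (log2FC -0.01, SE 0.27, adjusted p = 0.995). Ptgr1, a reductase that inactivates leukotriene B4 and prostaglandin metabolites, had 584, 445 and 387 against 431, 385 and 186 normalised counts, with overlap between the genotypes (log2FC -0.57, adjusted p = 0.670).

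None of the 3 transporters was called, by limma at either threshold or by edgeR or DESeq2 (0 each). The prostaglandin uptake carrier Slco2a1 lay at 394 to 939 normalised counts in the controls and 631 to 1016 in ILK-K5 (log2FC 0.23, adjusted p = 0.903). Abcc1, which exports leukotriene C4, had 472, 376 and 715 normalised counts in the controls and 846, 758 and 769 in ILK-K5, all above the controls (log2FC 0.65, SE 0.29, adjusted p = 0.418).

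Of the 9 prostanoid receptors 3 passed the filter, and limma, edgeR and DESeq2 called 0 of them, also 0 at an unadjusted limma p under 0.05. Ptger4, the EP4 receptor for prostaglandin E2, had 70.4, 79.1 and 82.7 normalised counts in the controls and 196, 105 and 97.4 in ILK-K5, with no overlap (log2FC 0.70, SE 0.38, adjusted p = 0.568). Ptgdr, a receptor for prostaglandin D2, overlapped (log2FC -0.61, adjusted p = 0.781). Among the 6 receptors below the filter 2 were at the floor of at most 3 reads in every control and above it in every ILK-K5 library, and they are named after their values were seen. How many of all genes below the filter had this pattern was not counted. The prostacyclin receptor Ptgir had 0, 0 and 0.7 normalised counts in the controls and 15.9, 18.5 and 13.6 in ILK-K5. Its ILK-K5 mean was 4.99-fold the mean value of 3 reads in the controls, with counting error in ILK-K5 left out. Ptgir was called without the filter (limma adjusted p = 0.0407, beside 1.49% of 34213 genes). Ptger2, the EP2 receptor for prostaglandin E2, had 2.9, 0 and 0.7 against 18.2, 20.1 and 11.7. Its ILK-K5 mean was 5.19-fold the same value of 3 reads, and control 1 itself held 3 reads. Ptger2 was not called without the filter (limma adjusted p = 0.141).

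Of the 7 other leukotriene enzymes 5 passed the filter and 1 was called higher, beside 2.93% of all genes tested. Dpep2, a membrane dipeptidase that converts leukotriene D4 to E4, had 27.0, 9.1 and 9.4 normalised counts in the controls and 260, 199 and 98.4 in ILK-K5 (log2FC 3.59, SE 0.57, adjusted p = 0.00873). Of its exon bases 44.0% are shared with other annotated entries. Most of these bases are shared with another entry on the same strand that also has the symbol Dpep2. The rest are shared with genes of other symbols. The call of Dpep2 was lost without control 2 (adjusted p = 0.0533) and without ILK-K5 2 (0.0609). Lta4h, which makes leukotriene B4, overlapped at 68.5 to 152 and 116 to 142 normalised counts (log2FC 0.46, adjusted p = 0.787), and Mgst3 did so too (log2FC 0.31, adjusted p = 0.930). Of the 6 leukotriene and lipoxin receptors 3 passed and limma, edgeR and DESeq2 called 0, also 0 at an unadjusted limma p under 0.05. The leukotriene B4 receptor Ltb4r1 had 3.9, 0 and 15.2 against 6.8, 40.1 and 31.2 normalised counts (log2FC 2.35, SE 1.13, adjusted p = 0.474), and the cysteinyl leukotriene receptor Cysltr1 16.4, 48.7 and 87.1 against 75.1, 67.1 and 73.1 (log2FC 0.78, adjusted p = 0.746). Fpr2, a receptor for lipoxin A4 named after its values were seen, had 0 reads in every control and 9, 13 and 8 reads in ILK-K5. Its ILK-K5 mean was 2.91-fold the mean value of 3 reads in the controls, with counting error in ILK-K5 left out. Without the filter Fpr2 missed the threshold (limma adjusted p = 0.0530).

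The 6 other lipoxygenases all passed the filter. Of them 1 was called higher, beside 2.93% of all genes tested, and 1 lower, beside 0.599%. Alox15, the 12/15-lipoxygenase of mouse macrophages and eosinophils, had 8.7, 7.6 and 0.7 normalised counts in the controls and 248, 245 and 216 in ILK-K5 (log2FC 5.50, SE 0.69, adjusted p = 0.00226). Its control mean of 5.67 normalised counts lay under the filter, which it passed through the ILK-K5 libraries (mean 236). Like Alox5ap and Pla2g7 it was called under all 18 alternatives, and like them it moved beside the leukocyte and macrophage lists, whose part was not tested. Alox8, a lipoxygenase of keratinocytes, went the other way, with 288, 148 and 119 normalised counts in the controls and 27.3, 22.4 and 63.3 in ILK-K5 (log2FC -2.31, SE 0.52, adjusted p = 0.0441). It was called in only 2 of the 6 fits that left out a library, without control 3 and without ILK-K5 3. Alox12b, an enzyme needed for the skin barrier, had 47.3, 51.7 and 189 against 18.2, 40.9 and 13.6 normalised counts, all ILK-K5 libraries below the controls (log2FC -1.79, SE 0.66, adjusted p = 0.267). Beside Alox8 and Alox12b, markers of differentiated keratinocytes had a median log2FC of -0.90. Of 6 tested, 1 was called lower (Lor), beside 0.599% of all genes tested. In 2 of 6 all ILK-K5 libraries lay below all controls, beside 6.95% of all genes tested. The sums of these markers overlapped, at 3055 to 17054 and 4061 to 6755 normalised counts, and their part was not tested. Alox12e, the epidermal 12-lipoxygenase, overlapped (log2FC 0.93, adjusted p = 0.625).

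**Figure D4:**
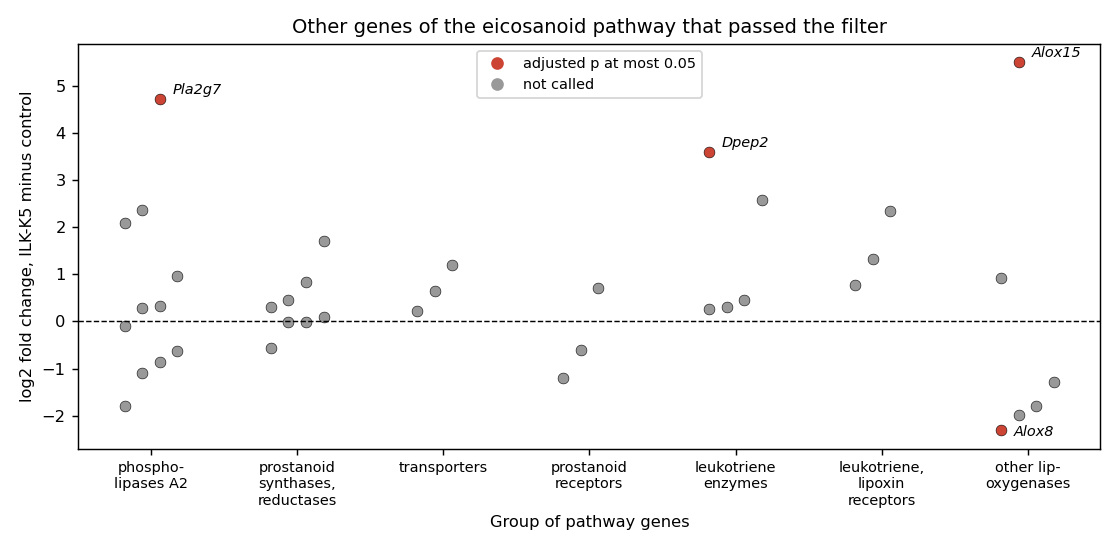
Log2 fold change of ILK-K5 against control for the 39 other pathway genes that passed the filter, by functional group along the x axis, 1 point per gene, red and named where limma gave an adjusted p of at most 0.05. Alox15 (5.50), Pla2g7 (4.71) and Dpep2 (3.59) stand at the top and Alox8 (-2.31) at the bottom.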

How the data were processed

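RNA of CD34+/α6 integrin-high bulge SCs was isolated with TRIzol LS, amplified with Ovation RNA-Seq V2 and made into Nextera XT libraries for paired-end sequencing. The authors trimmed the reads, removed ribosomal RNA reads and aligned the rest to GRCm38. The submitters' processing notes name TopHat2 2.0.14, Bowtie2 2.2.4 and DESeq2 1.6.3, and the program that counted reads per gene is not given in the sources used here. The deposited signal values are read counts per gene that the authors divided by DESeq2 size factors. The FPKM values, deposited by the authors, equal these per gene length. The deposited columns of the authors' own comparison (log2 fold changes, standard errors, p-values) were not used.

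All values (100%) of the normalised table were whole multiples of the value of 1 read (tolerance 1e-06), and the reads so recovered served as counts. A symbol was found for 42193 of 43274 identifiers (97.5%). Because the deposited values are normalised, limma 3.58.1 (lmFit, eBayes with trend, R 4.3.3) on log2(normalised count + 1) was the main test. The recovered reads also allowed count tests, which were run as alternatives. The limma test used genes with a mean of at least 10 normalised counts, all 6 libraries, no covariates and Benjamini-Hochberg adjustment at 0.05. Fold changes on this scale understate those of low genes. The fit was tested on simulated data. Alternatives were edgeR 4.0.16, DESeq2 1.42.0, other pseudocounts, filters and scalings, the FPKM table, a replicate block, a term for the number in the descriptions, replicates 2 and 3 alone, and leaving out each library. The share of Ptgs2 was tested by permutation in scipy 1.17.1, tables were made with Python 3.11.15 and pandas 2.3.3, and plots with matplotlib 3.10.9. Promoter sequences came from RefSeq (GRCm38.p6). Named were all members, each pathway gene called, up to 2 further tested genes of each group by mean FPKM, and the 3 genes most like a called member. Members and lists were chosen with earlier results of these data known. The marker symbol Trdc was not found.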

Additional observations from a re-analysis of the deposited data

How the results depend on the processing

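Depth limits Ptgds, Ltc4s and the control values of Alox5ap, which rest on 1 to 21 reads a library. With 3 libraries a genotype no exact permutation p under 0.1 was possible. Alox5ap was called higher under all 18 alternatives, as the 1 member called. The number of members called lower was 1 in place of 0 (Hpgd) in DESeq2 and with the term for the number in the descriptions, and 0 to 1 when each library was left out. Of all genes tested, 577 were called, against 1052 in DESeq2, 1132 with the number term and 254 to 656 without each library in turn. Pathway genes called higher numbered 3. The number was 4 without the filter (Ptgir added) and in DESeq2 (Pla2g4e added), 5 with the number term and 2 to 3 without each library in turn. Pathway genes called lower numbered 1. The number was 0 with the FPKM table, in edgeR, with a mean of at least 50 normalised counts, with a pseudocount of 0.1 and with replicates 2 and 3 only, 2 after quantile normalisation, 3 in DESeq2 and with the number term, and 0 to 1 without each library. The causes were not tested.

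Log2 fold changes that turned sign were those of Ptges3 (0.025 after quantile normalisation), Alox5 (-0.58 in edgeR, -0.63 in DESeq2), Pla2g2f (-0.57 in edgeR, -0.56 in DESeq2, -0.10 with replicates 2 and 3) and Hpgds (-0.11 with replicates 2 and 3). Without each library in turn, Alox5 ranged from -0.64 to 1.29, Pla2g2f from -0.32 to 1.36, Ptges3 from -0.14 to 0.17, Slco2a1 from -0.12 to 0.50, Mgst3 from -0.24 to 0.88 and Ptges2 from -0.072 to 0.55. None of these was called under any of the 18 alternatives in which it was tested. The Ptgs2 share differed by 23.9 points by normalised counts and by 17.3 to 30.0 points (exact permutation p = 0.2 each) without each library. The median log2FC of all genes moved by over 0.1 only without the filter, to -0.10.

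Control and ILK-K5 libraries share replicate numbers, and the numbers in their sample descriptions match as well. The deviations of same-numbered libraries from their genotype means correlated at 0.53, 0.02 and 0.31. Control 2 and control 3 had higher values with another number (0.07 and 0.50). Deviations within a genotype depend on each other, so these correlations cannot decide whether the libraries were paired. The main test did not take the numbers as pairs. With the replicate block 1117 genes were called, 1 member (Hpgd, adjusted p = 0.00756) and 3 pathway genes were called lower, and 1 member and 4 pathway genes (Pla2g4e added) were called higher.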
